A study of Homo sapiens with 6 samples.

Results

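The Polycomb repressive complex genes described here are EZH1, EZH2, EED, SUZ12, JARID2, BMI1, RNF2, CBX2, CBX7 and CBX8. They were taken by symbol from the deposited gene table, which held all 10 members among 19899 genes, and all 10 were among the 14246 genes that had enough counts to be tested. RNA was sequenced from COV434, a cultured line treated by the study as a model of SCCOHT, the hypercalcemic small cell ovarian cancer that lacks BRG1. Control cells received an empty pCDNA3-neo plasmid and BRG1 cells a plasmid that expresses BRG1, the SWI/SNF chromatin remodeling ATPase encoded by SMARCA4. Both groups also received a plasmid for puromycin resistance, were put on 2 to 3 µg/ml puromycin 24 hours later and were selected for 3 days. Each group had 3 biological replicates, numbered 1 to 3 (n = 3), and the cells are a transiently transfected population, not a clone.

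Polycomb repressive complex 2 (PRC2) methylates lysine 27 of histone H3 through EZH2 or its paralog EZH1, which work only when bound to EED and SUZ12. Polycomb repressive complex 1 (PRC1) ubiquitinates histone H2A through RING1 or RNF2, each paired with a PCGF protein such as BMI1, and its CBX subunits bind the mark that PRC2 makes. SWI/SNF and Polycomb complexes are known to oppose each other at developmental genes, so the comparison of BRG1 with Control addresses whether the RNA of the Polycomb machinery differs when BRG1 is put back.

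Promoter sequence is shown for EZH2, SUZ12 and EZH1. EZH2 was called lower only when the replicate number was added to the fit. SUZ12 was the member whose groups did not overlap, and EZH1 is the paralog of EZH2. With the group alone in the fit, none of the members was called. RefSeq windows (build GRCh38.p14) that run from 250 bases before to 50 bases after a start site were used for 8 of the 10 members, in 11 windows. The EZH2 window is chr7:148884242-148884541 on the minus strand, the SUZ12 window chr17:31936757-31937056 on the plus strand and the EZH1 window chr17:42744991-42745290 on the minus strand. The sequences are written along the gene's strand, and capitals mark matches to the letters TTTCCCGC, TTTCGCGC, TTTGCCGC or TTTGGCGC, searched on both strands as forms of the site bound by E2F, the factor that drives genes of the dividing cell.
EZH2: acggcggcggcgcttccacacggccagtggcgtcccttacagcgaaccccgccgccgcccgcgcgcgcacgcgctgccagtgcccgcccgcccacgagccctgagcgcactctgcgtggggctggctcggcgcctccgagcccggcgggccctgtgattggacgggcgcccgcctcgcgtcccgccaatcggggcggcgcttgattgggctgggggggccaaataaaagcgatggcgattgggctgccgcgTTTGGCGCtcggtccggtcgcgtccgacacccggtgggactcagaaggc
SUZ12: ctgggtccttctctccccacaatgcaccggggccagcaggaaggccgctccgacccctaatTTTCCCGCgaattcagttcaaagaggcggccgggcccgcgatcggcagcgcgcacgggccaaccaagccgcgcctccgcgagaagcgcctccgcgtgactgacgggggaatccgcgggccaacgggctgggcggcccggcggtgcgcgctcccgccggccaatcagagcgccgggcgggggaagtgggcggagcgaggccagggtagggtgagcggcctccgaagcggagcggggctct
EZH1: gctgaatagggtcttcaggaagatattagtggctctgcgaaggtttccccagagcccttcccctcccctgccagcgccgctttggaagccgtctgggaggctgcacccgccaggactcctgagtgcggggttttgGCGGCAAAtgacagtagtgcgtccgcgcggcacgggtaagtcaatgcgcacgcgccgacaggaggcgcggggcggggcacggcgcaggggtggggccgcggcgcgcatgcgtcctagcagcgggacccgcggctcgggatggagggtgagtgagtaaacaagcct
In EZH2 the match began at base 2 counted from the start site as 1, in SUZ12 at base -189 and, on the opposite strand, in EZH1 at base -115. These were the 3 member windows of 11 with such a match, while 3.31% of all 35116 windows held one. Another EZH2 window, chr7:148883436-148883735, held no match. The searched letters are rich in G and C, and the member windows held a median of 40 CpG against 14 over all windows, so the 2 sets of windows are not alike in base composition. The EZH2 window also held 4 CCAAT boxes, none of which overlapped the marked letters, and a CCAAT box on either strand was found in 34.6% of all windows. The AP-1 letters TGANTCA, on either strand, were in none of the 11 member windows and in 7.71% of all windows. Such matches describe the letters only.

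The transfected gene served as a check of the labels. The level of SMARCA4, in counts per 1000000 scaled by the TMM method (CPM), was 31.6, 36.7 and 33.3 in Control samples 1 to 3 and 2316, 1714 and 1729 in BRG1 samples 1 to 3, where plasmid transcripts are included. SMARCA4 rose by 5.82 on the log2 scale (SE 0.17, edgeR quasi-likelihood test, adjusted p = 5.7e-06). SMARCA2, which encodes the other ATPase, BRM, was at 0.360 ± 0.241 CPM (SD, n = 3) in Control and 0.518 ± 0.341 CPM (SD, n = 3) in BRG1. Libraries held 29699741 to 63613710 estimated counts, and BRG1 sample 3 was the shallowest. BRG1 sample 3 also stood nearest to Control, with a Pearson correlation of log2 CPM over 14246 genes of 0.938 to 0.942 with the Control samples, against 0.880 to 0.919 for the other BRG1 samples. Of 5 granulosa cell markers, FOXL2 and FSHR were at or under 3 counts in every sample, while the summed level of the 5 ran from 6.40 to 10.2 CPM in Control and from 13.8 to 19.6 CPM in BRG1. Of the 3 tested, CYP19A1, the aromatase that makes estrogen, rose (log2 fold change 3.74, edgeR adjusted p = 0.00074), and AMH, the anti-Müllerian hormone, had a log2 fold change of 0.45 (edgeR adjusted p = 0.412). The remaining tested marker lay below 0 and was not called. Of 7 markers of other cells, the T cell gene CD3E was also at or under 3 counts in every sample, and the summed level of the 7 ran from 29.2 to 35.6 CPM in Control and from 97.9 to 115.5 CPM in BRG1. VWF, an endothelial clotting protein, carried most of the difference (log2 fold change 6.21, edgeR adjusted p = 0.000147). HBB, a globin, was also called higher (edgeR adjusted p = 0.00158), at 0.612 to 0.854 CPM in BRG1 against at most 3 counts in each Control sample. Of the 6 markers of other cells that were tested, 4 lay above 0 and 2 below. None was called lower, though 1 was lower at an unadjusted edgeR p under 0.05. The part of these markers in the results below was not tested.

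None of the 10 Polycomb members passed an adjusted p of 0.05 in either direction in the edgeR test, against 9.57% of all tested genes called higher and 1.05% called lower. DESeq2 called none either, with 10.7% of its genes called higher and 1.78% lower. With the group alone in the fit, no member reached an unadjusted p of 0.05 in edgeR or in DESeq2, and 1, SUZ12, did so in limma-voom. The log2 fold changes ran from -0.39 for EZH2 to 0.11 for EED, with 8 members below 0 and 2 above, and a median of -0.20 against -0.04 for all tested genes. Below 0 lay 55.7% of all tested genes. The 95% interval of the fold change lay within 2-fold in either direction for 9 members, where 68.3% of all tested genes had such an interval, and the interval of CBX2 reached to -1.11 on the log2 scale. The lower end for EZH2 lay at that limit, at -0.999. No member's RNA was scarce, since the lowest estimated count of any member in any sample was 391 and the highest 3859. In bulk RNA, fewer cells of a kind and less RNA in each cell cannot be told apart.

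Samples with the same replicate number deviated together over all genes, so the fit with the replicate number as a block is set beside the first fit where it alters a call. In that fit 1 of the 10 members, EZH2, was called lower and none higher, while 5.95% of all tested genes were called lower and 13.7% higher. DESeq2 with the same block also called EZH2 lower and no other member, with 6.39% of its genes called lower. A single call among 10 members is close to that background. With the block, 3 members had an unadjusted p under 0.05 in edgeR (EZH2, SUZ12 and CBX8), all lower. In DESeq2 with the block 4 did (the same and CBX2), also all lower. The share of all genes at that unadjusted p was not counted, so these counts have no background and say nothing particular about the members.

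**Figure D1:**
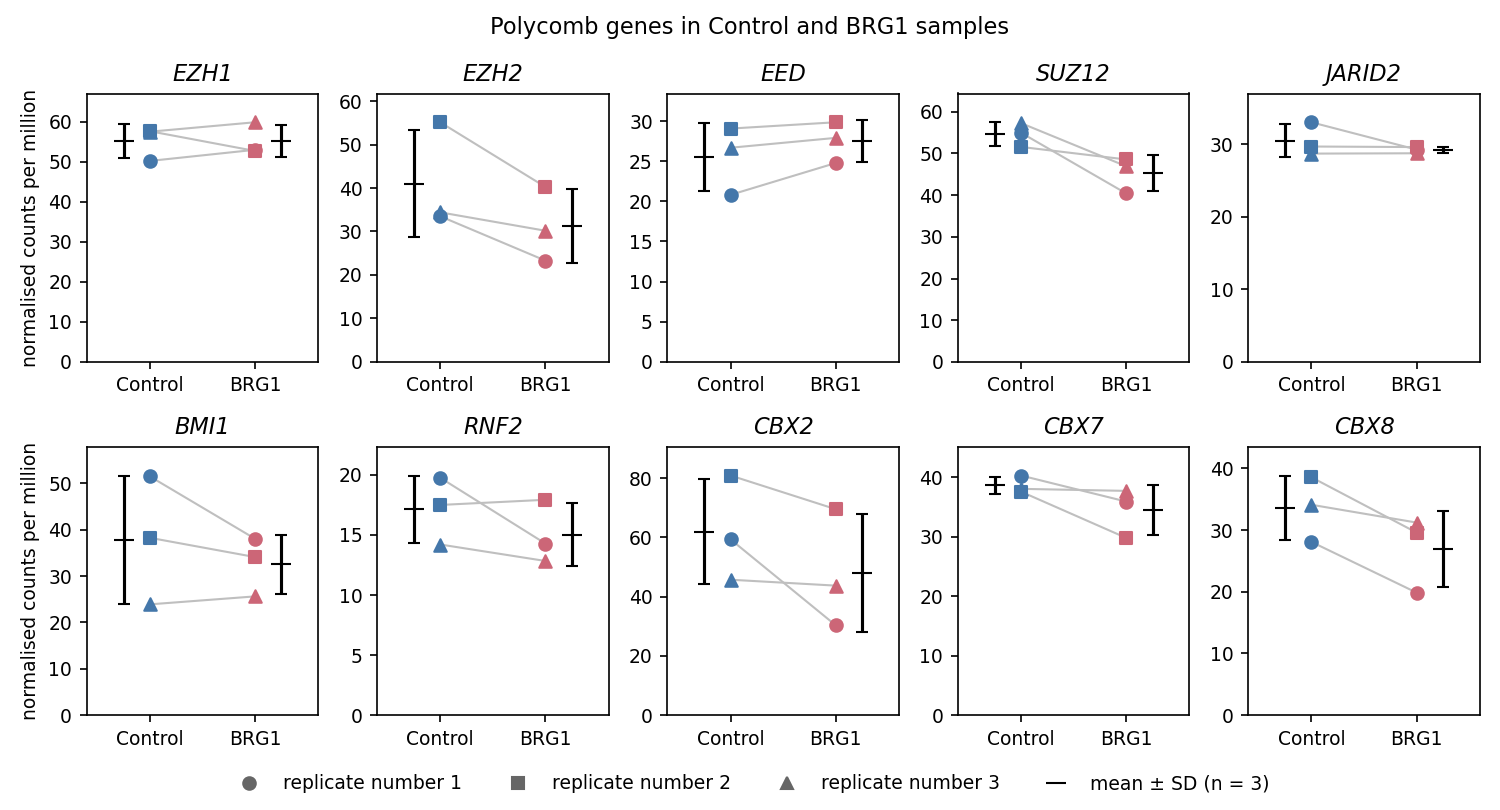
Normalised CPM (y axis, from 0) of each Polycomb gene in Control and BRG1 samples, with samples of the same replicate number joined by a line and bars for the mean ± SD of 3 samples. EZH2 is lower with BRG1 in all 3 numbers (55.1 to 40.2 CPM in number 2), SUZ12 is the member whose groups do not overlap, and BMI1 spreads from 23.9 to 51.5 CPM within Control.

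Among the PRC2 enzymes, EZH2 showed the larger difference. EZH2 lies on chromosome 7 from 148807257 to 148884321 (minus strand, GRCh38, GENCODE release 44). It was at 33.5, 55.1 and 34.4 CPM in Control samples 1 to 3 and at 23.3, 40.2 and 30.2 CPM in BRG1 samples 1 to 3. The groups overlapped, because BRG1 sample 2 stood above Control samples 1 and 3, but each BRG1 sample was below the Control sample of its own number, by log2 differences of -0.52, -0.45 and -0.19. The log2 fold change was -0.39 (SE 0.26, 95% interval -0.999 to 0.21, edgeR adjusted p = 0.482). It moved to -0.13 without Control sample 2, to -0.21 without BRG1 sample 1 and to -0.60 without BRG1 sample 2. With the replicate number as a block it was -0.39 (SE 0.10, 95% interval -0.62 to -0.16, edgeR adjusted p = 0.0321), and DESeq2 with the block gave an adjusted p of 0.0182. The blocked call was not kept in every fit that left out both samples of a number. When both samples of number 1 or both of number 2 were left out, the blocked edgeR adjusted p was 0.128 or 0.205, and without number 3 it was 0.0151. The log2 fold change in these fits was -0.32, -0.36 and -0.45. Fewer samples also raise the p-value, so these fits cannot show that the call rested on particular samples.

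EZH1, the paralog with weaker methyltransferase activity that is known to persist in cells that do not divide, lies on chromosome 17 from 42700275 to 42745049 (minus strand). It was at 50.2, 57.6 and 57.5 CPM in Control and at 53.0, 52.7 and 59.9 CPM in BRG1. The groups overlapped almost wholly, and the log2 fold change was 0.00 (SE 0.11, 95% interval -0.26 to 0.26, edgeR adjusted p = 0.996). The ratio of EZH2 to EZH1, each per kilobase of its canonical transcript (2654 and 4633 bases), was 1.17, 1.67 and 1.05 in Control and 0.768, 1.33 and 0.880 in BRG1. The geometric mean ratio was 1.27 in Control and 0.966 in BRG1, a log2 difference of -0.39. The pooled SD between replicates was 0.39, which also holds the spread between replicate numbers. Within replicate numbers 1 to 3 the log2 difference was -0.60, -0.32 and -0.25.

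Of the PRC2 core subunits, SUZ12, which holds the complex together, was the member whose groups did not overlap. SUZ12 lies on chromosome 17 from 31937007 to 32001038 (plus strand). It was at 55.0, 51.6 and 57.3 CPM in Control and at 40.4, 48.5 and 46.9 CPM in BRG1. Every BRG1 sample was below every Control sample, as in 11.2% of all tested genes, and no other member showed such a separation in either direction, while 15.9% of all tested genes were separated with BRG1 higher. The log2 fold change was -0.27 (SE 0.12, 95% interval -0.54 to 0.00), with an edgeR adjusted p of 0.245, or 0.0869 with the block. EED, the subunit that binds methylated lysine 27, lies on chromosome 11 from 86201212 to 86278813 (plus strand). It was at 20.8, 29.1 and 26.7 CPM in Control and at 24.8, 29.9 and 27.9 CPM in BRG1, overlapping groups with a log2 fold change of 0.11 (SE 0.17, edgeR adjusted p = 0.791). EED was the one member higher with BRG1 within each of the 3 numbers, as 26.3% of all tested genes were. JARID2, an accessory subunit that helps PRC2 find its sites, lies on chromosome 6 from 15246069 to 15522042 (plus strand). Its CPM was 33.0, 29.7 and 28.7 in Control and 29.2, 29.6 and 28.7 in BRG1, the narrowest spread of any member within BRG1, and the log2 fold change was -0.06 (SE 0.12, edgeR adjusted p = 0.844).

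In PRC1, RNF2 encodes the catalytic RING1B subunit and lies on chromosome 1 from 185045526 to 185102603 (plus strand). Its CPM was 19.8, 17.5 and 14.2 in Control and 14.3, 17.9 and 12.8 in BRG1, overlapping groups with a log2 fold change of -0.19 (SE 0.20, edgeR adjusted p = 0.677). BMI1, a PCGF partner of canonical PRC1, lies on chromosome 10 from 22321099 to 22331484 (plus strand). It was at 51.5, 38.2 and 23.9 CPM in Control and at 38.0, 34.1 and 25.6 CPM in BRG1. In both groups the sample numbered 1 was highest and the sample numbered 3 lowest, and the groups overlapped. The log2 fold change was -0.21 (SE 0.28, edgeR adjusted p = 0.747). Without Control sample 1 the direction turned, to 0.07.

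The value of BMI1 is uncertain because the readthrough gene COMMD3-BMI1 covers 22.8% of its exon bases and the table counts it separately. COMMD3-BMI1 was at 28.6, 31.0 and 24.2 CPM in Control and at 20.2, 24.8 and 20.2 CPM in BRG1. The groups overlapped at a single pair of samples, since BRG1 sample 2 stood just above Control sample 3. Its log2 fold change was -0.36 (SE 0.16, edgeR adjusted p = 0.254), and with the block it was called lower (edgeR adjusted p = 0.0463). Summed, BMI1 and COMMD3-BMI1 were at 65.8 ± 16.3 CPM (SD, n = 3) in Control and 54.3 ± 7.38 CPM (SD, n = 3) in BRG1. The ratio of BMI1 to PCGF2, its close paralog, per kilobase was 0.407, 0.266 and 0.177 in Control and 0.411, 0.284 and 0.199 in BRG1. Its log2 difference between groups was 0.09, against a pooled SD of 0.56 that also holds the spread between replicate numbers, and within numbers 1 to 3 it was 0.01, 0.09 and 0.17.

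The CBX proteins are the readers of PRC1. CBX2 lies on chromosome 17 from 79778148 to 79787983 (plus strand), was at 59.3, 80.8 and 45.7 CPM in Control and was at 30.3, 69.5 and 43.7 CPM in BRG1. Control sample 2 and BRG1 sample 2 stood above the others of their groups, and the log2 fold change was -0.37 (SE 0.32, edgeR adjusted p = 0.601). It moved to -0.12 without BRG1 sample 1, to -0.14 without Control sample 2 and to -0.73 without BRG1 sample 2. The difference within numbers was uneven, at -0.97, -0.22 and -0.06 on the log2 scale. CBX8, its neighbor on chromosome 17 from 79792132 to 79801683 (minus strand), was at 28.1, 38.6 and 34.1 CPM in Control and at 19.9, 29.6 and 31.2 CPM in BRG1. Its groups overlapped, and the log2 fold change was -0.32 (SE 0.21), with an edgeR adjusted p of 0.462, or 0.0647 with the block. CBX7, on chromosome 22 from 39120167 to 39152680 (minus strand), was at 40.3, 37.6 and 38.1 CPM in Control and at 35.9, 29.8 and 37.7 CPM in BRG1. BRG1 sample 3 lay inside the Control range, and the log2 fold change was -0.17 (SE 0.13, edgeR adjusted p = 0.569). Other annotated genes cover 21.6% of the exon bases of CBX7, and since the libraries kept no strand their reads cannot be told apart there. With both samples of number 3 left out, the blocked edgeR fit called CBX2 (adjusted p = 0.0471) and CBX8 (adjusted p = 0.0363) lower as well as EZH2. That fit was chosen after seeing the data. The share of all genes it called lower was not counted, so these calls have no background.

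**Figure D2:**
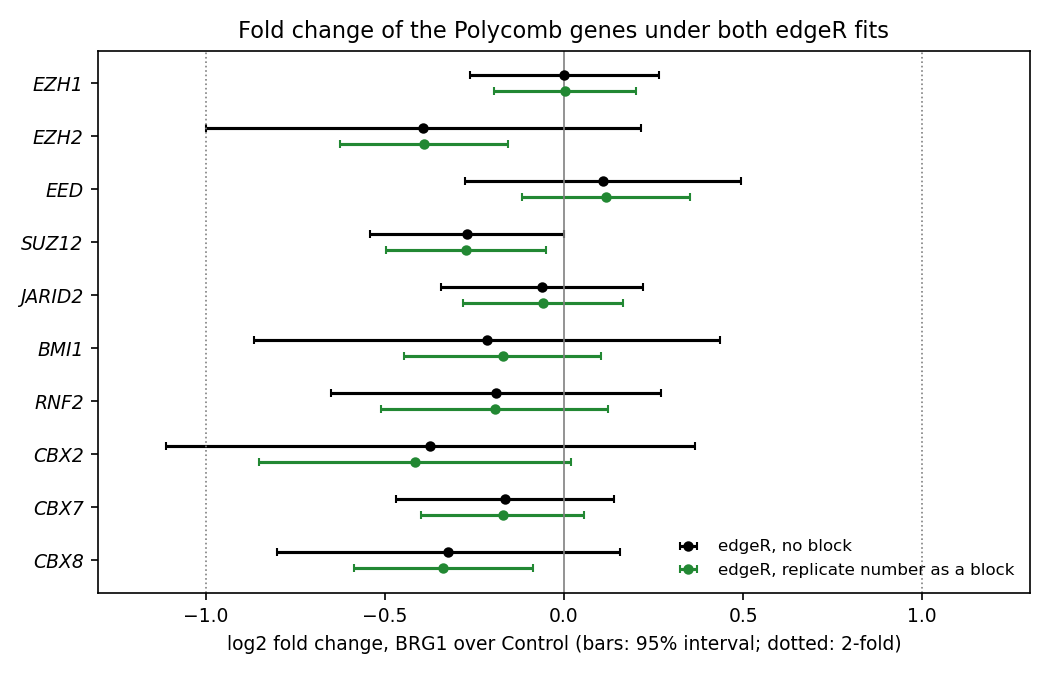
Log2 fold change of BRG1 over Control (x axis) for each Polycomb gene, with 95% intervals from edgeR without a block (black) and with the replicate number as a block (green), and dotted lines at 2-fold. The point estimates hardly move between the fits, while the EZH2 interval narrows from -0.999 to 0.21 down to -0.62 to -0.16.

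In most members, as in most genes, the replicate number took a larger share of the spread than the group. In 9 of the 10 members the replicate number, with 2 degrees of freedom, took a larger share of the sum of squares of log2 CPM than the group, with 1 degree of freedom, and the same held for 63.5% of all tested genes with a value in every sample. The median share was 61.8% for the number and 19.4% for the group over the members, and 50.8% and 23.9% over all such genes. BMI1 (86.4%) and EED (81.2%) had the largest shares for the number. SUZ12 was the exception, with 68.5% for the group and 11.9% for the number. In CBX7 the shares were nearly equal, at 38.6% for the group and 38.7% for the number. Within numbers, 5 members (EZH2, SUZ12, CBX2, CBX7 and CBX8) were lower with BRG1 in all 3, against 30.2% of all tested genes.

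**Figure D3:**
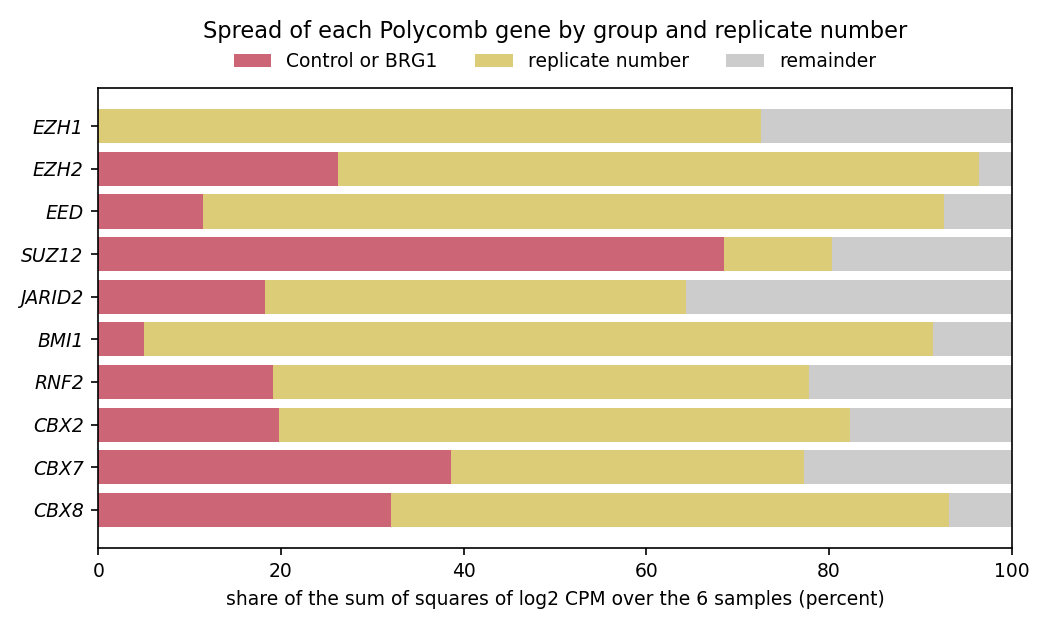
Share of each Polycomb gene's sum of squares of log2 CPM over the 6 samples (x axis, percent) that lies between Control and BRG1 (red), between replicate numbers (yellow) and in the remainder (gray). SUZ12 is the one gene with a red share above the yellow one, at 68.5%.

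Levels between genes were compared per kilobase of the GENCODE canonical transcript. In Control, EZH2 stood highest at 15.5 ± 4.61 CPM per kilobase (SD, n = 3), followed by CBX2 (13.4), EED (12.2), SUZ12 (12.1), EZH1 (11.9), BMI1 (10.7), CBX7 (9.40) and CBX8 (8.95). JARID2 (5.07) and RNF2 (5.04) stood lowest. Neighbors in this order overlapped in their Control samples in every case but CBX8 and JARID2, so a gap was seen at a single point. In BRG1 samples EED was first at 13.2 ± 1.23 CPM per kilobase (SD, n = 3), followed by EZH1 at 11.9 and EZH2 at 11.8, while the places from 6 to 10 were as in Control.

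CBX7 and CBX2 were also compared within each sample. The ratio of CBX7 to CBX2 per kilobase was 0.765, 0.523 and 0.938 in Control and 1.34, 0.483 and 0.972 in BRG1. Its log2 difference was 0.25, against a pooled SD of 0.61 that also holds the spread between replicate numbers. Within numbers 1 to 3 the difference was 0.80, -0.12 and 0.05, and without number 1 the mean difference was -0.03.

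Beyond the 10 members, none of 8 tested genes among 9 other PRC2 subunits was called, and 7 of the 8 lay below 0 with a median log2 fold change of -0.12. The histone-binding subunits RBBP4 (log2 fold change -0.27, edgeR adjusted p = 0.381) and RBBP7 (-0.24, edgeR adjusted p = 0.286) had the smallest p-values. The PRC2 inhibitor EZHIP, listed under its older symbol, was at 0 counts in every sample. Of 23 other PRC1 subunits, 1 was called higher and none lower, and the median was -0.02. AUTS2, a subunit of PRC1 forms known to activate transcription, was at 4.61, 2.78 and 3.15 CPM in Control and at 10.3, 8.14 and 6.34 CPM in BRG1. The groups did not overlap, and AUTS2 rose with a log2 fold change of 1.24 (SE 0.29, edgeR adjusted p = 0.0316). Leaving out Control sample 2 or 3, or BRG1 sample 1 or 2, raised its edgeR adjusted p to between 0.0964 and 0.121. PCGF5, a PCGF partner of variant PRC1, had a log2 fold change of 0.47 (SE 0.23, edgeR adjusted p = 0.315) and was called higher with the block (edgeR adjusted p = 0.0111), which made 2 calls.

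The genes that counteract Polycomb, listed with related enzymes, were similar. Of 14 genes of the Polycomb deubiquitinase complex and of related demethylases and deubiquitinases, none was called and the median log2 fold change was -0.11. ASXL3, a subunit of that complex, had a log2 fold change of -0.73 (SE 0.44, edgeR adjusted p = 0.427). KDM1B, a demethylase of lysine 4 and not of lysine 27 of histone H3, had one of -0.33 (SE 0.14, edgeR adjusted p = 0.246). With the block KDM1B was called lower (edgeR adjusted p = 0.0437). Of 13 genes listed as Trithorax methyltransferases or their partners, none was called without or with the block, and the median was -0.06. The methyltransferase KMT2A (-0.21, edgeR adjusted p = 0.385) and its partner subunit WDR5 (-0.18, edgeR adjusted p = 0.538) had the smallest p-values of that list.

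Genes known in many cell types as targets of Polycomb were called about as often as all genes. Of 28 such genes 20 were tested, 2 were called higher, beside 9.57% of all tested genes, and none lower, and the median log2 fold change was 0.07. CDKN2B, an inhibitor of CDK4 and CDK6, was at 9.32, 7.38 and 4.64 CPM in Control and at 51.2, 32.8 and 10.5 CPM in BRG1 (log2 fold change 2.16, SE 0.54, edgeR adjusted p = 0.0419). GATA6, an endoderm transcription factor, was at 0.723, 0.231 and 0.377 CPM in Control and at 22.3, 17.4 and 3.61 CPM in BRG1 (log2 fold change 5.04, SE 0.75, edgeR adjusted p = 0.00406). In both genes the groups did not overlap, and BRG1 sample 3 was the lowest BRG1 sample. CDKN2B lost its call in limma-voom (adjusted p = 0.0814), under both other filters and without 5 of the 6 samples in turn, all but BRG1 sample 3 (edgeR adjusted p up to 0.146). With the block 4 target genes were called higher, beside 13.7% of all tested genes, the other 2 being LHX2 and CCND2, which were named after their values were seen.

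The cell cycle is given beside EZH2 because EZH2 is a textbook E2F target in dividing cells. Without the block, none of 33 cell cycle and E2F target genes was called or reached an unadjusted p of 0.05 in edgeR or DESeq2. Of the 33, 32 lay below 0, beside 55.7% of all tested genes, with a median log2 fold change of -0.38. MCM6, a subunit of the replicative helicase, had a log2 fold change of -0.36 (SE 0.18, edgeR adjusted p = 0.327), and PCNA, the sliding clamp, one of -0.38 (SE 0.20, edgeR adjusted p = 0.350). With the block 5 genes were called lower by edgeR (MCM5, MCM6, CCNA2, BIRC5 and UHRF1) and 17 by DESeq2, beside 5.95% and 6.39% of all genes tested in those fits. The median log2 ratio of BRG1 to Control over the list, with 0.5 CPM added, was -0.78 in number 1, -0.39 in number 2 and -0.08 in number 3. For EZH2 the same differences were -0.52, -0.45 and -0.19, for CBX8 -0.50, -0.38 and -0.13, and for SUZ12 -0.44, -0.09 and -0.29. The part of the cell cycle genes in the EZH2 result was not tested.

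**Figure D4:**
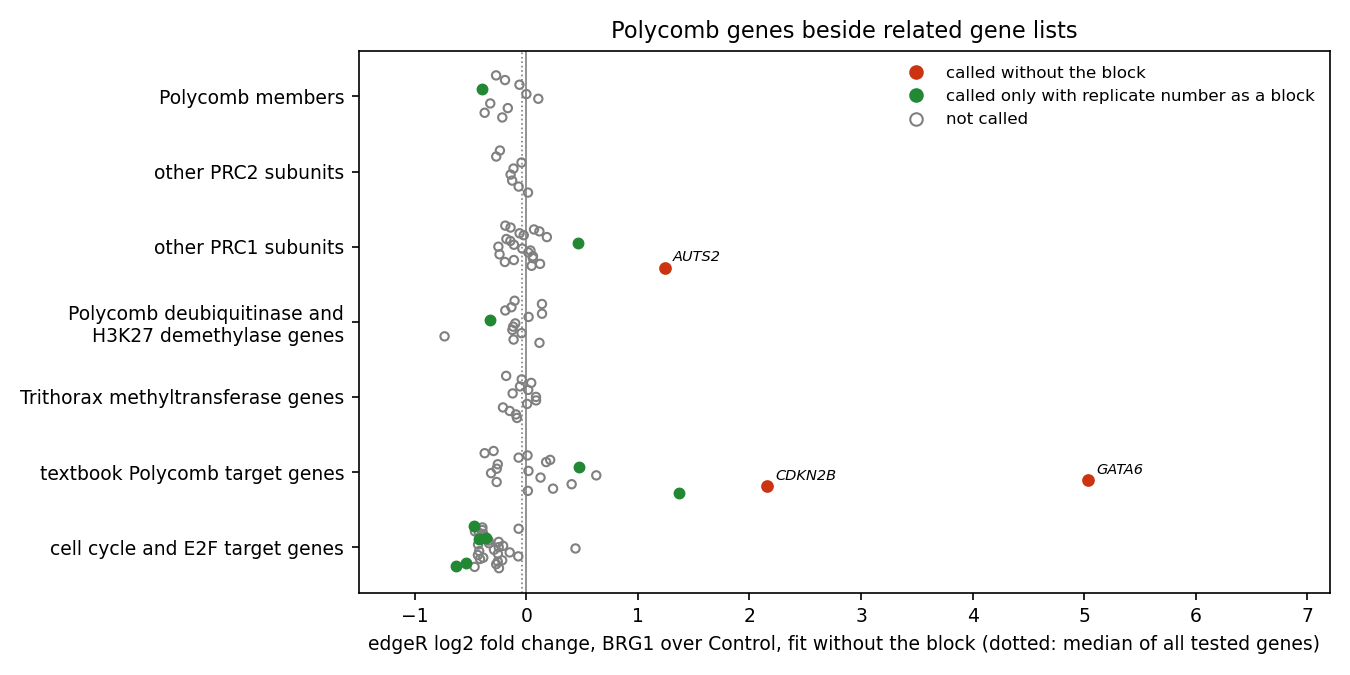
EdgeR log2 fold change of BRG1 over Control without the block (x axis) for every tested gene of 7 lists, with genes called in that fit in red and labelled, genes called only with the replicate number as a block in green, and the median of all tested genes dotted. The 10 Polycomb members lie between -0.39 and 0.11, while GATA6 and CDKN2B among the target genes lie above 2.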

How the data were processed

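RNA-seq was made from Control and BRG1 transfected COV434 cells (n = 3 each). Per the labels, poly(A) libraries from 500 ng of RNA kept no strand and gave paired reads 78 bases long. According to the submitters' processing notes and the methods, the authors used FastQC (0.11.5), STAR (2.5.3a), Salmon (0.8.2), hg38 with GENCODE release 24, tximport and DESeq2 (1.22.2). The table deposited by the authors holds estimated counts, 1 row a gene symbol, scaled for transcript length and library size and not divided by depth. Salmon shares reads between near-identical copies, and the pseudogenes EZH2P1, EEDP1, SUZ12P1, BMI1P1 and RNF2P1 are not among the table's rows.

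Estimated counts were rounded. Of 19899 genes, 18096 had a count. The test was edgeR's quasi-likelihood test (4.0.16, R 4.3.3) with TMM factors and filterByExpr, BRG1 against Control, on all genes, with Benjamini-Hochberg adjustment and a threshold of 0.05. It was preferred to the study's DESeq2 because the false calls of DESeq2 exceeded its threshold when it was tested on simulated data. The simulated counts used edgeR's own estimates of spread and held no effect of replicate number. They therefore cannot decide between fits with and without the block. DESeq2 (1.42.0) and limma-voom (3.58.1) were alternatives, with other scaling, filters and left-out samples. The edgeR SEs were derived from the log2 fold change and the test's F statistic, and the 95% intervals from these SEs and the t distribution. Totals of 29699741 to 63613710 estimated counts set the counting error. No 2 libraries held the same values.

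The replicate numbers paired the samples, since deviations from group means over 14246 genes correlated at 0.364, 0.343 and 0.482 between samples of the same number and at -0.384 to 0.0577 otherwise. What the numbers share is not stated.

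Every member was named, with SMARCA4, SMARCA2 and COMMD3-BMI1, which shares exons with BMI1. From each other list, the genes called were named, up to 6, or the 2 of smallest p where fewer than 2 were called. Of the listed genes, 4 that are not members are not reported here and were left out of the counts and medians. The members and lists were chosen with earlier results of these data known. EPOP and EZHIP were matched by older symbols. Coordinates and transcript lengths are from GENCODE release 44.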

Additional observations from a re-analysis of the deposited data

How the results depend on the processing

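Over all genes, edgeR called 1363 higher and 149 lower. DESeq2 called 291 lower, edgeR with the replicate block 847 lower, DESeq2 with the replicate block 2086 higher and 1022 lower, library totals alone 87 lower and a filter of at least 50 counts in 3 samples 98 lower. Leaving out each sample gave 1017 to 1799 higher and 39 (without BRG1 sample 2) to 271 (without BRG1 sample 3) lower. No Polycomb member was called in either direction under the other scalings, filters, thresholds of 0.01 and 0.1 or left-out samples, by edgeR, DESeq2 or limma-voom without the block. With the replicate block 1 member was called lower by edgeR and by DESeq2. In blocked fits without each replicate number in turn, chosen after seeing the data, 0 to 3 members were called lower. The share of all genes called in those fits was not counted. The sign turned for EZH1 in limma-voom (-0.0127) and without a filter (-0.0034), without Control sample 1 (-0.0661, the highest with a sample left out being 0.0554) or BRG1 sample 3 (-0.0256) and, with the replicate block, without number 1 (-0.0362). It turned without Control sample 1 for EED (-0.0234, with 0.207 the highest) and BMI1 (0.0659, with -0.464 the lowest). With a sample left out, the log2 fold change ran from -0.598 to -0.125 for EZH2, from -0.726 to -0.123 for CBX2 and from -0.440 to -0.144 for CBX8. The CBX7 to CBX2 ratio turned to -0.0323 without number 1. Other PRC1 subunits had 2 calls higher with either replicate block and 0 to 1 with a sample left out. The deubiquitinase and demethylase list had 1 call lower with the edgeR replicate block. Target genes had 4 calls higher in DESeq2, 4 with the edgeR replicate block, 5 higher and 1 lower with the DESeq2 replicate block, 1 higher under each other filter, and 1 to 3 higher with a sample left out. Cell cycle genes had 5 and 17 calls lower with the edgeR and DESeq2 replicate blocks and 0 to 1 with a sample left out. The replicate block changed no other call of a member. At this number of samples the unblocked 95% intervals of the members allow differences down to -1.11 on the log2 scale. The cause of these differences was not tested.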
